A study of Mus musculus with 9 samples.

Results

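The DNA replication machinery was represented by 39 genes, which were taken from the 54532 genes of the deposited mouse table by their symbols. The list holds the factors that load and activate the replicative helicase, the sliding clamp and its loader, the replicative polymerases, the single-strand binding protein, 2 enzymes that process Okazaki fragments and 3 enzymes that make deoxynucleotides. All 39 were found, with at least 137 counts in every library, and all 39 passed the filter on low counts. Each was measured by RNA sequencing in 9 libraries of cardiosphere-derived cells (CDCs), cells that grow out of heart tissue in culture through floating spheres, from heart ventricle of C57BL/6 mice. The study's paper describes the starting tissue as the epicardium of the ventricle. P0 is primary CDCs without treatment. P30 is iCDCs, CDCs made immortal with hTERT, the catalytic subunit of human telomerase, at passage 30 and without treatment. SBT is iCDCs at passage 30 treated for 3 days with SB431542, which blocks the kinase of TGF-β type I receptors, so that both P30 and SBT carry hTERT. The paper states that cells given hTERT were selected with puromycin. Between P0 and P30, hTERT, this selection and culture to passage 30 therefore cannot be told apart. Each group had 3 libraries, numbered 1 to 3 and written here as P0_1 or SBT_2. The study's methods describe the SB431542-treated material as an epithelial clone of the primary cells, whereas the labels give treated iCDCs, and the labels were followed. The P30 and SBT libraries come from 1 immortalized line, and the labels do not say whether the libraries of a group were separate cultures. The study's methods speak of biological replicates but give another number for each condition than the deposited libraries. Its figure legends for RNA sequencing give n = 3, the number deposited. The p-values are therefore taken here to measure only the spread between these libraries.

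Replication starts at origins, where the origin recognition complex, Cdc6 and Cdt1 load the MCM2-7 ring onto DNA in G1. In S phase Cdc45 and the GINS complex join the ring and turn it into a moving helicase, and polymerase α-primase lays down the primers that polymerases δ and ε extend on the Pcna clamp. Most of these genes are transcribed at the G1/S boundary by E2F factors, which are held back by RB family proteins, and in many epithelial cells TGF-β signalling slows entry into S phase. In bulk RNA the number of cells in S phase and the amount of a transcript in each such cell cannot be told apart.

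The libraries were compared within their groups before the genes were examined. Total counts ranged from 16568306 to 23951392. Chi-square statistics divided by their degrees of freedom, over genes with at least 20 counts in a pair of libraries, were between 2.70 and 4.23 for the P0 pairs, 4.61 for P30_1 with P30_2 and 3.79 for SBT_1 with SBT_3. They were 24.9 and 30.8 for the pairs with P30_3 and 70.3 and 71.5 for the pairs with SBT_2, so that these 2 libraries stood apart. As a check of the treatment label, Smad7, a direct TGF-β target chosen after its values were seen, had an FPKM (fragments per kilobase of gene, scaled to the library's size, a level per length) of 24.8 to 26.1 in P0, 33.5 to 35.3 in P30, 8.16 and 7.49 in SBT_1 and SBT_3 and 14.0 in SBT_2. Skil, another target, had an FPKM of 9.02 to 10.3 in P30, 1.92 and 1.73 in SBT_1 and SBT_3 and 2.79 in SBT_2. Both targets were thus below every P30 library in SBT_2 as well, but less so than in the other SBT libraries. Of the CDC markers, Eng, Thy1, Gata4 and Tbx18 were present in every library, while Ly6a, which encodes Sca-1, had an FPKM of 3.93 to 7.11 in P0 and P30 and of 35.3, 16.2 and 37.0 in SBT. Of 6 endothelial markers 4 had at most 3 counts in every library (Pecam1, Tek, Tie1 and Emcn), and the summed FPKM of all 6 was at most 0.165. Of 6 haematopoietic markers Itgam and Cd3e had at most 3 counts in every library, and the sum, to which Csf1r gave the most in every library, was 7.13 to 10.7. Lyz2 had 14, 14 and 16 counts in P0, 77, 57 and 67 in P30 and 25, 43 and 45 in SBT. Of the 3 haematopoietic markers tested in edgeR, 1 was higher and 0 lower in P30 than in P0, and 1 was lower and 0 higher in SBT than in P30. Of 6 cardiomyocyte markers Myh6, Myh7, Actn2 and Nppa had at most 3 counts in every library, and the sum was 0.0517 to 1.68. Tnnt2, the 1 marker of these that was tested, had 83, 101 and 101 counts in P0, 262, 183 and 133 in P30 and 34, 7 and 30 in SBT. It was higher in P30 than in P0 and lower in SBT than in P30 in edgeR (log2 fold changes 1.36 and -3.07). The summed FPKM of 9 epicardial or epithelial markers, most of it Krt19, was 19.5 to 20.5 in P0, 29.4 to 32.0 in P30 and 26.6, 41.2 and 26.2 in SBT. The sum was highest in SBT_2, as was Krt19, but SBT_2 was above both other SBT libraries for 3 of the 9 markers. Krt8, Cdh1 and Epcam had at most 3 counts in every library. Krt19 had an FPKM of 28.8 to 31.2 in P30 and of 23.3, 37.9 and 22.8 in SBT. Of the 4 markers tested between SBT and P30 in edgeR 3 were higher in SBT and 0 lower, and without SBT_2 3 were higher and 1 lower. Wt1, a transcription factor of the epicardium, had 2, 2 and 0 counts in P30 and 43, 14 and 39 in SBT, lowest of the SBT libraries in SBT_2. Upk3b, a marker of mesothelium, had 4, 8 and 9 counts in P30 and 72, 97 and 87 in SBT. The part of these markers in the results below was not tested.

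The promoters of 6 members are shown because Orc1, Cdc6, Mcm5, Gins3 and Rrm2 had the largest change of their role in P30 or in SBT and Mcm6 the most E2F matches of the 6, and they were chosen after the values were seen. The clamp and its loader, the polymerases, the single-strand binding protein and Okazaki fragment processing have no promoter shown, so the 6 do not stand for the whole list. Each sequence is the 200 bases before the RefSeq start on GRCm38.p6, read 5′ to 3′ on the strand of the gene. Capitals mark the E2F letters searched (TTTCCCGC, TTTCGCGC, TTTGCCGC and TTTGGCGC) and the CCAAT box (CCAAT), each on both strands.
Orc1 (chr4:108579254-108579453, + strand): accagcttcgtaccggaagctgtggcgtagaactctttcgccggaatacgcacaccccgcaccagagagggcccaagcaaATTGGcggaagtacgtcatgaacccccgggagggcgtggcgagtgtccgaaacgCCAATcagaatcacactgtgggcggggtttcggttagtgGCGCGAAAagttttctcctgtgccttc
Cdc6 (chr11:98907951-98908150, + strand): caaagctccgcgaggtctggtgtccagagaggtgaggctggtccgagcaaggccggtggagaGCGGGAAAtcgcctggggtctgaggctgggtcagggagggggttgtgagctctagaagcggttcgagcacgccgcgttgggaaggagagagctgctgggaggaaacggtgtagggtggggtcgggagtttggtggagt
Mcm5 (chr8:75109309-75109508, + strand): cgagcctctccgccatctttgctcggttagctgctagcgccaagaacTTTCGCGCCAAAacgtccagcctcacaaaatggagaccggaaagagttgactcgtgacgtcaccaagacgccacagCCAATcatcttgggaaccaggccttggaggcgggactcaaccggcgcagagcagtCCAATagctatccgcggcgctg
Mcm6 (chr1:128359706-128359905, - strand): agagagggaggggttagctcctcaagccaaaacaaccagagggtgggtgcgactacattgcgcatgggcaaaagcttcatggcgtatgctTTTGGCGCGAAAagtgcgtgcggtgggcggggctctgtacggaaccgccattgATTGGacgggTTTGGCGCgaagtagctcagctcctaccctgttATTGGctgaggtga
Gins3 (chr8:95633359-95633558, + strand): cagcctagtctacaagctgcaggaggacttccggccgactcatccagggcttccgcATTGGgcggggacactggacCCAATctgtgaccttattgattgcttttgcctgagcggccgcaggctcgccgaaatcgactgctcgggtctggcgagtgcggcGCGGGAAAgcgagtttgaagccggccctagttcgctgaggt
Rrm2 (chr12:24708054-24708253, + strand): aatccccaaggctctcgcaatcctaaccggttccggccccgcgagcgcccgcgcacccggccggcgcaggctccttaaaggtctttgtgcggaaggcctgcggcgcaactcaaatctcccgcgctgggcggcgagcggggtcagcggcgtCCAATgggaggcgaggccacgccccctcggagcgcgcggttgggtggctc
Mcm5 and Mcm6 each hold a pair of overlapping E2F matches on opposite strands, and Mcm6 holds another match nearer to its start. Rrm2 holds none of the E2F letters and a single CCAAT box, 50 bases before its start.

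Windows from 250 bases before to 50 after the RefSeq start were available for 32 of the 39 members, in 38 windows. E2F letters were in 13 of the 38 windows (34.2%), against 2.26% of 32851 windows of all genes. The CCAAT box was in 63.2% of the members' windows and in 37.4% of all windows, and the CHR letters (TTTGAA and TTCGAA, on both strands), known from promoters of later cell cycle genes, were in 18.4% and 19.2%. The 13 members with E2F letters were Orc1, Cdc6, Cdt1, Mcm3, Mcm5, Mcm6, Mcm7, Gins3, Rfc3, Pola1, Pold1, Pole2 and Lig1. Among the 14 members with a window that were higher in P30 than in P0, 7 held E2F letters, and among the 18 that did not pass that test 6 did. Among the 8 with a window that were lower in SBT than in P30, 2 held them. A match of letters is a description of the sequence and does not show a bound site.

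The replication genes were slightly higher in P30 than in P0. With an adjusted p-value under 0.05 in edgeR's quasi-likelihood test over all genes, 15 of the 39 rose and 0 fell, whereas 7.21% of the 13752 tested genes were called higher and 9.21% lower. The median log2 fold change of the 39 was 0.25, with 37 above 0 and a range from -0.10 (Rfc1) to 0.52 (Orc1), beside a median of 0.00 over all genes. All 3 P30 libraries lay above all P0 libraries in FPKM for 32 of the 39 members, against 20.7% of all tested genes. The members that rose were Orc1, Orc6, Cdc6, Cdt1, Mcm2, Mcm3, Mcm4, Mcm5, Mcm7, Mcm10, Pcna, Rfc3, Pola2, Rpa2 and Rrm2. The count rested on the fit. Without P30_3, 25 members rose, where 15.5% of all genes were called higher, and without P0_1, P0_2 or P0_3 the number was 8, 6 and 7, where 2.63%, 2.57% and 2.68% of all genes were called higher and the members' median was 0.25, 0.26 and 0.27. With all 9 libraries in 1 fit, which takes its spread from SBT too, 0 of the 39 passed in edgeR, where 1.46% of all genes were called higher. In that fit 11 had an unadjusted p under 0.05. DESeq2 called 20 members higher, where 8.56% of all genes were called higher.

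Treatment with SB431542 was compared with untreated P30. Of the 39 genes 11 fell and 0 rose in SBT, where 14.0% of the 13559 tested genes were called lower and 16.0% higher. The median log2 fold change was -0.36, with 34 of the 39 below 0 and a range from -1.25 (Rrm2) to 0.16 (Lig1), beside a median of 0.00 over all genes. The genes that fell were Orc2, Orc6, Cdc6, Mcm4, Gins2, Gins3, Prim1, Prim2, Rpa2, Fen1 and Rrm2. All SBT libraries lay below all P30 libraries for 16 members, against 23.5% of all tested genes. Without SBT_2, 27 members fell, with a median of -0.56, and 24.8% of all genes were called lower. SBT_2 was the highest SBT library for 37 of the 39 members, so leaving it out lowers their SBT level by construction. Falls given below without SBT_2 therefore describe SBT_1 and SBT_3 and are no further support. Without both SBT_2 and P30_3, an alternative chosen after seeing the data, 31 fell and Lig1 rose, with a median of -0.51 and 31.9% of all genes called lower. The call was lost for most members when a library other than SBT_2 was left out, since 1 member passed without SBT_1, 1 without SBT_3, 1 without P30_1, 2 without P30_2 and 5 without P30_3. The share of all genes called lower was then 5.13%, 5.55%, 5.19%, 5.31% and 11.9%, and the members' median was -0.23, -0.24, -0.36, -0.37 and -0.30. Fen1 passed in all 17 alternatives. The comparisons of P30 with P0 and of SBT with P30 share the P30 libraries, so opposite signs in them are not independent.

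**Figure D1:**
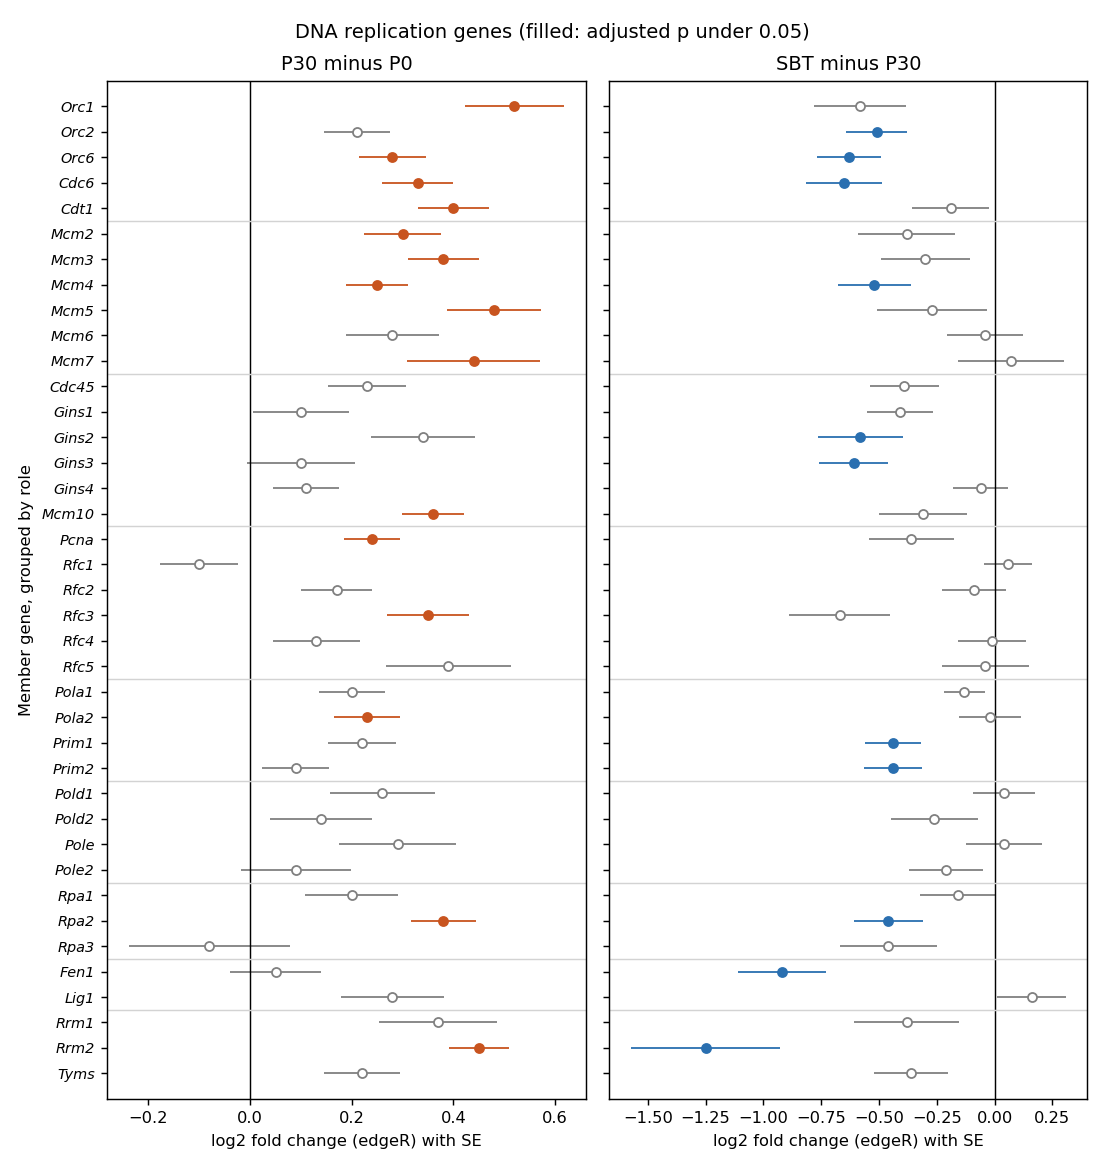
Log2 fold changes from edgeR with their standard errors for the 39 replication genes, P30 minus P0 on the left and SBT minus P30 on the right, with genes grouped by role and filled points for an adjusted p under 0.05. On the left 15 points are filled, all above 0, and on the right 11 are filled, all below 0, with Rrm2 and Fen1 farthest to the left.

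The position of each library was measured as the median over the 39 members of the log2(CPM + 1) deviation from each gene's mean over 9 libraries. The P0 libraries lay close together at -0.06, -0.07 and -0.05. P30_1 and P30_2 were at 0.14 and 0.15 and P30_3 at 0.28. SBT_1 and SBT_3 were at -0.31 and -0.32, below every other library, whereas SBT_2 was at 0.19, between P30_2 and P30_3. The same median over all tested genes was between -0.01 and 0.01 in every library. SBT_2 was above both other SBT libraries for 37 of the 39 members (all but Gins3 and Rfc1), against 43.0% of all tested genes. Its FPKM was a median of 1.39 times the mean of SBT_1 and SBT_3, from 0.892 for Gins3 to 2.41 for Rrm2, against 0.995 over all tested genes. P30_3 was above both other P30 libraries for 24 members, against 41.6% of all tested genes, with a median ratio of 1.11, from 0.692 for Rpa3 to 1.45 for Mcm7. Of the members, 16 had their highest value in P30_3 and 11 in SBT_2, and 29 had their lowest in SBT_1 or SBT_3 (16 and 13). The same counts were not made over all genes, among which P30_3 and SBT_2 also stood apart, so they describe the members only.

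**Figure D2:**
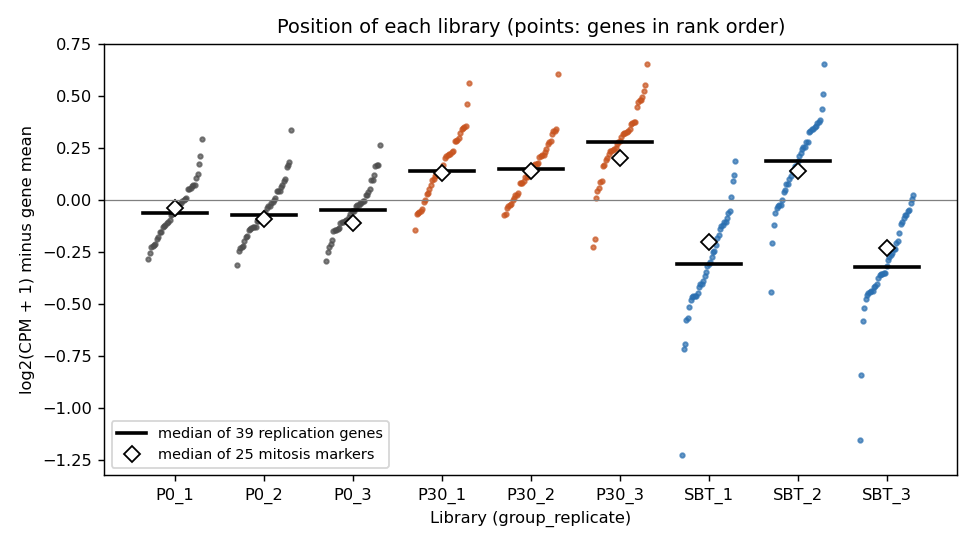
Deviation of log2(CPM + 1) from each gene's mean over 9 libraries, with 1 point for each replication gene in rank order, a bar at the median of the 39 genes and a diamond at the median of 25 mitosis markers. SBT_1 and SBT_3 lie lowest at -0.31 and -0.32, and SBT_2 lies at 0.19 among the P30 libraries.

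SBT_1 and SBT_3 were both below every P30 library for 34 of the 39 members, against 35.4% of all tested genes. The exceptions were Mcm7, Rfc1, Pold1, Pole and Lig1. They were also both below every P0 library for 27 members, against 38.5% of all tested genes. SBT_2, by contrast, was above every P0 library for 28 members, against 42.7% of all tested genes, and below every P0 library for 8, against 41.1% (Orc2, Orc6, Gins3, Rfc1, Prim2, Rpa3, Fen1 and Rrm2). The 25 mitosis markers had the same order of libraries in SBT, with medians of -0.20, 0.14 and -0.23 in SBT_1, SBT_2 and SBT_3, and of 0.13, 0.14 and 0.20 in P30. In P0 they were at -0.04, -0.09 and -0.11.

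**Figure D3:**
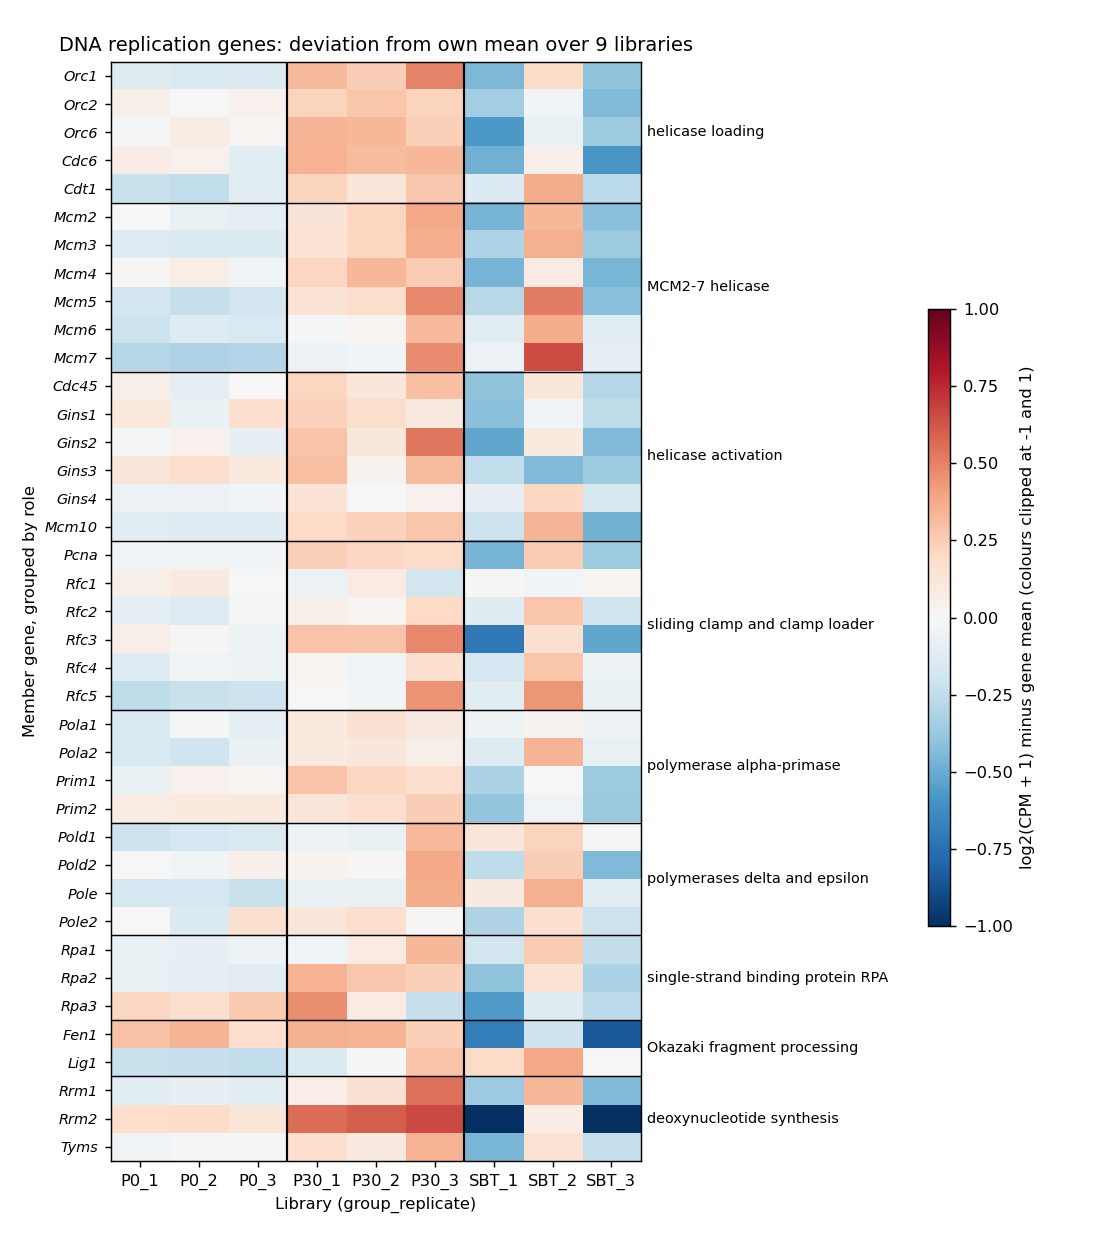
Heat map of the log2(CPM + 1) deviation from each gene's own mean over 9 libraries, with genes in rows by role and libraries in columns by group. The P30 columns and SBT_2 are mostly red and SBT_1 and SBT_3 mostly blue, while Gins3 and Fen1 are blue in SBT_2 and Rfc1 is pale in every column.

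Among the genes of helicase loading 4 of 5 were higher in P30 than in P0 (median log2 fold change 0.33) and 3 of 5 were lower in SBT than in P30 (median -0.58). Orc1, the largest subunit of the origin recognition complex, had an FPKM of 3.79, 3.73 and 3.72 in P0, of 5.28, 4.98 and 6.02 in P30 and of 2.98, 4.76 and 3.07 in SBT. Its 3 P30 libraries were above all others, and it rose in P30 by 0.52 on the log2 scale (standard error 0.0972, adjusted p = 0.00738 in edgeR). In SBT its log2 fold change against P30 was -0.58 and missed the threshold (adjusted p = 0.0589 in edgeR). Orc6, a small subunit of the same complex, had an FPKM of 15.0, 16.0 and 15.4 in P0, of 19.4, 19.3 and 18.2 in P30 and of 10.1, 14.5 and 11.8 in SBT. Orc6 rose in P30 by 0.28 (standard error 0.0662, adjusted p = 0.0212 in edgeR), and in SBT all 3 libraries were below both other groups, a fall of 0.63 from P30 (adjusted p = 0.0134 in edgeR). Orc2 had a mean FPKM of 9.76 ± 0.208 (SD, n = 3) in P30 and 6.80 ± 1.09 (SD, n = 3) in SBT, and fell by 0.51 on the log2 scale.

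Cdc6 and Cdt1 bring the MCM2-7 ring to the origin. Cdc6 had an FPKM of 9.40, 9.23 and 8.30 in P0, of 11.5, 11.2 and 11.4 in P30 and of 6.39, 9.26 and 5.92 in SBT. It rose in P30 by 0.33 (adjusted p = 0.0132 in edgeR) and fell in SBT by 0.65 from P30 (standard error 0.165, adjusted p = 0.0213 in edgeR), although SBT_2 lay within the range of P0. Cdt1 had an FPKM of 16.6, 16.4 and 18.1 in P0, of 23.0, 21.4 and 23.9 in P30 and of 17.8, 25.4 and 16.2 in SBT. Its rise in P30 was 0.40 (standard error 0.0706, adjusted p = 0.00571 in edgeR). In SBT it was below P30 in SBT_1 and SBT_3 but above every P30 library in SBT_2, and its log2 fold change of -0.19 had an adjusted p of 0.407 in edgeR. Without SBT_2 all 5 loading genes fell, with a median of -0.78, where 24.8% of all genes were called lower.

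The 6 subunits of the MCM2-7 helicase were expressed at similar levels per length, from 28.0 (Mcm2) to 47.1 (Mcm4) mean FPKM in P0 and from 34.8 (Mcm2) to 65.4 (Mcm5) in P30. In P30 5 of the 6 rose, all but Mcm6 (log2 fold change 0.28, adjusted p = 0.0659 in edgeR). Mcm5 had an FPKM of 47.1, 45.7 and 47.0 in P0, of 59.3, 60.9 and 76.1 in P30 and of 44.7, 76.7 and 40.4 in SBT. It rose in P30 by 0.48 (standard error 0.0933, adjusted p = 0.00927 in edgeR), and SBT_2 was above every P30 library while the other SBT libraries were below every P0 library. Mcm7 had an FPKM of 31.9, 31.3 and 31.7 in P0, of 37.5, 38.3 and 54.8 in P30 and of 37.6, 61.4 and 36.8 in SBT. Its rise in P30 was 0.44 (standard error 0.131, adjusted p = 0.0481 in edgeR) and passed in 7 of 16 alternatives. SBT_1 and SBT_3 lay at the level of P30_1 and P30_2, so that no fall passed with SBT_2 or without it (log2 fold changes 0.07 and -0.22).

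Mcm2 had an FPKM of 29.1, 27.7 and 27.3 in P0, of 32.0, 34.0 and 38.3 in P30 and of 21.2, 36.7 and 21.8 in SBT. Its increase in P30 was 0.30 (standard error 0.0761, adjusted p = 0.0293 in edgeR). Against P30 its log2 fold change in SBT was -0.38 with a standard error of 0.210 and did not pass (adjusted p = 0.204 in edgeR), since SBT_2 lay within the P30 range. Without SBT_2 it fell by 0.68 (adjusted p = 0.000631 in edgeR, in a range over the alternatives from 2.61e-09 to 0.510). Mcm4 was the subunit that fell in SBT with all libraries, from a mean FPKM of 56.5 ± 2.33 to 39.1 ± 8.84 (SD, n = 3 each), by 0.52 on the log2 scale. Without SBT_2 4 of the 6 fell, where 24.8% of all genes were called lower, and Mcm6 and Mcm7 did not pass. In SBT_1 and SBT_3 Mcm2, Mcm3, Mcm4 and Mcm5 were below every P0 library, whereas Mcm6 and Mcm7 were above every P0 library.

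**Figure D4:**
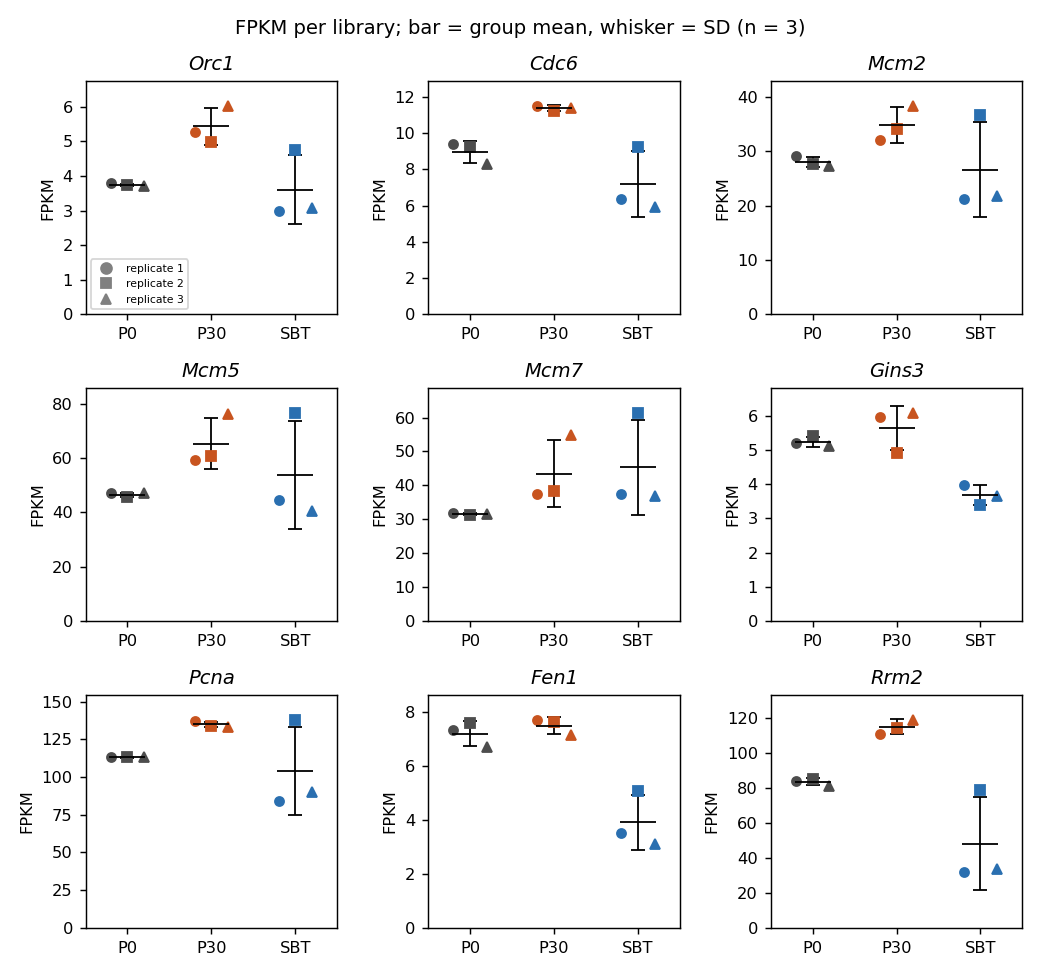
FPKM of 9 replication genes in each library of P0, P30 and SBT, with circles, squares and triangles for replicates 1, 2 and 3, bars for group means and whiskers for the SD (n = 3). The SBT_2 square lies near or above P30 for Mcm2, Mcm5, Mcm7 and Pcna and below P30 for Gins3, Fen1 and Rrm2.

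Of the 6 genes of helicase activation, 1 rose in P30 and 2 fell in SBT. Mcm10, which joins the helicase as origins fire, was the one that rose, from a mean FPKM of 6.01 ± 0.0639 to 7.80 ± 0.247 (SD, n = 3 each), by 0.36 on the log2 scale. The 4 GINS subunits differed from each other. Gins3 had an FPKM of 5.21, 5.40 and 5.11 in P0, of 5.96, 4.90 and 6.08 in P30 and of 3.98, 3.40 and 3.66 in SBT. It was the member with the lowest value in SBT_2 relative to its SBT neighbours, all 3 SBT libraries were below every other library, and it fell by 0.61 from P30 (standard error 0.150, adjusted p = 0.0194 in edgeR). Gins2 had an FPKM of 13.3, 14.0 and 12.8 in P0, of 16.6, 14.7 and 19.9 in P30 and of 9.46, 14.6 and 9.93 in SBT. It fell by 0.58 from P30 (standard error 0.184, adjusted p = 0.0452 in edgeR), with SBT_2 just below the lowest P30 library, and passed in 8 of 17 alternatives. Gins4 was the highest of the 4, with a mean FPKM of 41.0 ± 2.08 in P30 and 39.1 ± 5.44 in SBT (SD, n = 3 each), which differ by -0.06 in log2 fold change. Gins1 (-0.41) and Cdc45 (-0.39), which travel with the moving helicase, did not pass with all libraries (adjusted p = 0.0611 and 0.0793 in edgeR) and fell by 0.53 and 0.57 without SBT_2.

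Pcna, the sliding clamp, was the member with the highest level per length in every group. Its FPKM was 113, 113 and 113 in P0, 137, 134 and 133 in P30 and 83.9, 138 and 90.2 in SBT. Pcna rose in P30 by 0.24 (standard error 0.0557, adjusted p = 0.0206 in edgeR), the pseudogene copy Pcna-ps2 having 35 to 65 counts. In SBT the groups overlapped, as SBT_2 was above every P30 library and the other SBT libraries were below every P0 library, and the log2 fold change of -0.36 did not pass (adjusted p = 0.167 in edgeR). Without SBT_2 Pcna fell by 0.62. The clamp loader subunits Rfc1 to Rfc5 open the clamp around DNA, and among them Rfc3 rose in P30, from a mean FPKM of 8.09 ± 0.340 to 10.4 ± 0.899 (SD, n = 3 each). Rfc3 was at 4.82, 9.05 and 5.55 in SBT, a log2 fold change of -0.67 from P30 with an adjusted p of 0.0501 in edgeR, and it passed without SBT_2 (adjusted p = 0.000161 in edgeR, in a range over the alternatives from 6.52e-10 to 0.158). Rfc1, the large subunit, varied least, from 14.2 to 17.1 FPKM over all 9 libraries. Rfc2, Rfc4 and Rfc5 had log2 fold changes between -0.09 and -0.01 against P30 and did not pass without SBT_2 either.

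Polymerase α-primase makes the RNA-DNA primers, and its 2 primase subunits fell in SBT while its polymerase subunits did not pass. Prim2 had an FPKM of 6.59, 6.73 and 6.69 in P0, of 6.84, 7.09 and 7.54 in P30 and of 4.76, 6.10 and 4.81 in SBT. All SBT libraries were below both other groups, and it fell by 0.44 from P30 (standard error 0.125, adjusted p = 0.0315 in edgeR) and by 0.34 from P0 (adjusted p = 0.0432 in edgeR). Prim1 fell from a mean FPKM of 13.8 ± 0.555 in P30 to 10.1 ± 1.41 in SBT (SD, n = 3 each), by 0.44 on the log2 scale. Pola2 rose in P30 by 0.23, and had log2 fold changes of -0.02 in SBT with SBT_2 and -0.19 without it. Pola1, the catalytic subunit, varied little in SBT, with 6.32, 6.70 and 6.29 FPKM, and its log2 fold change from P30 was -0.13 (adjusted p = 0.302 in edgeR).

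Of the 4 subunits of polymerases δ and ε in the list 0 passed in P30 against P0 and 0 in SBT against P30 with all libraries, with adjusted p-values from 0.313 (Pold2) to 0.872 (Pole) in edgeR in the second. Pold1, the catalytic subunit of polymerase δ, had an FPKM of 15.6, 16.0 and 16.4 in P0, of 17.6, 17.4 and 23.0 in P30 and of 19.9, 21.3 and 18.0 in SBT. It was higher in every SBT than in every P0 library and rose by 0.31 from P0 (standard error 0.0763, adjusted p = 0.0201 in edgeR), with a log2 fold change of 0.04 against P30. Pole, its counterpart in polymerase ε, had a mean FPKM of 5.34 ± 0.112 in P0 and 6.70 ± 1.08 in SBT (SD, n = 3 each), with an adjusted p of 0.0563 in edgeR. The accessory subunits Pold2 and Pole2 had log2 fold changes against P30 of -0.26 and -0.21, and fell by 0.49 and 0.38 without SBT_2.

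Rpa1, Rpa2 and Rpa3 form the complex that coats single-stranded DNA. Rpa2 had an FPKM of 14.2, 14.0 and 13.9 in P0, of 19.2, 18.2 and 17.9 in P30 and of 11.3, 16.6 and 12.0 in SBT. It rose in P30 by 0.38 (standard error 0.0637, adjusted p = 0.00440 in edgeR) and fell in SBT by 0.46 from P30 (adjusted p = 0.0488 in edgeR). This fall passed in 8 of 17 alternatives. Rpa3, the smallest subunit, had an FPKM of 17.2, 16.6 and 17.9 in P0, of 20.7, 15.7 and 12.6 in P30 and of 9.74, 13.5 and 12.2 in SBT. Its P30 libraries were spread on both sides of P0, and it fell in SBT by 0.53 from P0 (standard error 0.128, adjusted p = 0.0181 in edgeR) while against P30 the log2 fold change of -0.46 missed the threshold (adjusted p = 0.128 in edgeR). Rpa1 had a mean FPKM of 41.4 ± 0.396, 47.9 ± 6.62 and 42.5 ± 8.23 in P0, P30 and SBT (SD, n = 3 each), with no difference past the threshold with all libraries. Without SBT_2 it fell by 0.34 from P30 and by 0.13 from P0.

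The 2 enzymes of Okazaki fragment processing moved in opposite directions between P0 and SBT. Fen1, the flap nuclease that trims the fragments, had an FPKM of 7.34, 7.59 and 6.70 in P0, of 7.73, 7.64 and 7.15 in P30 and of 3.53, 5.08 and 3.13 in SBT. It did not differ past the threshold between P30 and P0 (log2 fold change 0.05), and all SBT libraries were below all others, a fall of 0.92 from P30 (standard error 0.191, adjusted p = 0.0105 in edgeR) and of 0.87 from P0 (adjusted p = 0.0107 in edgeR). Fen1 overlaps Tmem258 on the opposite strand, with a median of 1241 counts for Tmem258 and 304 for Fen1, and whether counting used the strand is not given in the sources used here. Lig1, the ligase that seals the fragments, had an FPKM of 27.2, 27.1 and 26.6 in P0, of 28.8, 31.5 and 39.1 in P30 and of 36.4, 41.6 and 31.9 in SBT. It rose in SBT by 0.45 from P0 (standard error 0.0988, adjusted p = 0.0130 in edgeR), and its log2 fold change from P30 was 0.16 (adjusted p = 0.444 in edgeR). Lig1 and 8 further members (Orc2, Orc6, Mcm7, Cdc45, Gins2, Rfc2, Rfc4 and Rfc5) also overlap a counted gene on the opposite strand.

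The largest log2 fold change of all members between SBT and P30 was in deoxynucleotide synthesis. Rrm2, the small subunit of ribonucleotide reductase and the one made in S phase, had an FPKM of 84.2, 84.8 and 81.1 in P0, of 111, 114 and 119 in P30 and of 31.9, 78.7 and 33.5 in SBT. The 3 groups did not overlap. Rrm2 rose in P30 by 0.45 (standard error 0.0593, adjusted p = 0.00137 in edgeR) and fell in SBT by 1.25 from P30 (standard error 0.322, adjusted p = 0.0228 in edgeR), to 0.421 times the P30 level. SBT_2 had 2.41 times the mean of SBT_1 and SBT_3, and without it the fall was 1.80 (adjusted p = 1.31e-06 in edgeR, in a range over the alternatives from 9.62e-21 to 0.0749). Rrm1, the large subunit, was at 27.5, 44.4 and 26.0 FPKM in SBT against 37.2, 39.4 and 52.3 in P30 with a log2 fold change of -0.38 that missed the threshold (adjusted p = 0.225 in edgeR). Tyms, which makes thymidylate, had a mean FPKM of 19.2 ± 1.85 in P30 and 14.8 ± 3.22 in SBT (SD, n = 3 each), and its log2 fold change was -0.36 (adjusted p = 0.119 in edgeR). Without SBT_2 Rrm1 and Tyms fell by 0.67 and 0.55, and without P30_3 all 3 genes rose in P30 against P0.

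**Figure D5:**
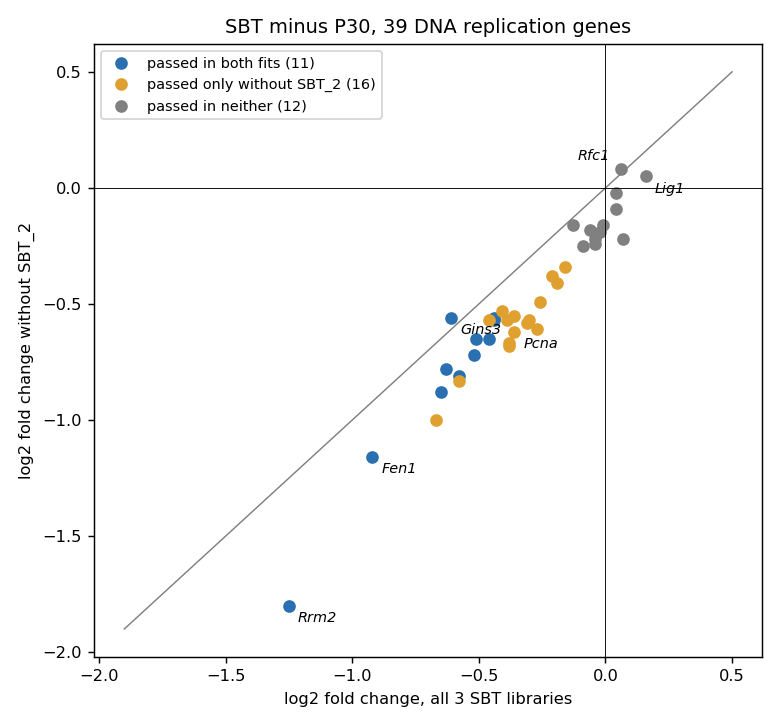
Log2 fold change of SBT against P30 for each replication gene with all 3 SBT libraries on the x axis and without SBT_2 on the y axis, with a line where both are equal and colours for the adjusted p under 0.05 in edgeR. Nearly all points lie below the line, Gins3 and Rfc1 lie above it, and 27 genes pass without SBT_2 against 11 with it. Of all genes 24.8% and 14.0% were called lower in these fits.

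Between SBT and P0 few members were called with all libraries. Of the 39, 2 rose (Lig1 and Pold1) and 4 fell (Fen1, Rpa3, Gins3 and Prim2). These are 5.13% and 10.3% of the members, below the 17.9% and 17.0% of the 14015 tested genes called higher and lower. The median log2 fold change of the members was -0.07. Gins3 fell by 0.50 (standard error 0.104, adjusted p = 0.0109 in edgeR). Rrm2 had a log2 fold change of -0.79 but a standard error of 0.330, and did not pass (adjusted p = 0.104 in edgeR). Without SBT_2, 26 fell (66.7%) and 5 rose (12.8%), with a median of -0.29. Of all genes 32.3% were called lower and 31.7% higher, so that the rises stayed below the share of all genes. The 5 that rose were Mcm7, Rfc5, Pold1, Pole and Lig1, with log2 fold changes of 0.16 (Rfc5) to 0.35 (Lig1). Rrm2 (-1.34) and Fen1 (-1.10) then had the largest falls. Without P0_1, P0_2 or P0_3, 0 members rose and 1, 0 and 2 fell, where 8.64% to 8.96% of all genes were called higher and 8.45% to 8.53% lower. Without SBT_1, 1 rose and 3 fell, where 11.3% of all genes were called higher and 10.9% lower. Leaving out SBT_3 gave 3 that rose and 3 that fell, where the shares were 12.1% and 11.6%.

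The rest of the replication pathway was described by 46 further genes, among them other origin and clamp factors, histone chaperones and nucleotide enzymes. Of these 15 rose and 0 fell in P30 against P0 (median log2 fold change 0.17), where 7.21% of all genes were called higher, and in SBT against P30 7 fell and 0 rose (median -0.22), close to the 14.0% of all genes called lower. Without SBT_2 25 of the 46 fell, against 24.8% of all genes. The largest increases in P30 were those of Shmt1, Pold4 and Tk1. Tk1, which salvages thymidine, had a mean FPKM of 19.7 ± 0.406 in P0 and 27.7 ± 5.20 in P30 (SD, n = 3 each), and rose by 0.48 on the log2 scale (adjusted p = 0.0223 in edgeR). The largest falls in SBT were those of Tipin, Pole4 and Orc4. Orc4, a subunit of the origin recognition complex, had an FPKM of 5.14, 5.11 and 4.19 in P30 and of 3.03, 3.27 and 3.35 in SBT, where SBT_2 lay between its neighbours, and fell by 0.57 (adjusted p = 0.0122 in edgeR). SBT_2 was above both other SBT libraries for 40 of the 46, against 43.0% of all tested genes.

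The 25 mitosis markers, which are transcribed after replication, were compared with the replication genes because both follow the cell cycle. Of these 10 rose and 0 fell in P30 against P0 (median 0.19), against 7.21% of all genes called higher, among them Kif23, Cdc20 and Birc5 with log2 fold changes of 0.41, 0.38 and 0.35. In SBT against P30 4 fell and 1 rose (median -0.27), close to the 14.0% of all genes called lower, and 14 fell without SBT_2, against 24.8%. Aurka, a mitotic kinase, had an FPKM of 48.5, 49.9 and 59.1 in P30 and of 27.2, 41.6 and 26.1 in SBT, and fell by 0.72 (adjusted p = 0.0228 in edgeR). Cenpf, a kinetochore protein, was the marker that rose in SBT, from 5.56 ± 0.327 to 6.90 ± 0.298 mean FPKM (SD, n = 3 each), by 0.32 on the log2 scale (adjusted p = 0.0398 in edgeR). Between SBT and P0 2 markers rose (Mki67 and Cenpf) and 0 fell, where 17.9% of all genes were called higher and 17.0% lower. Mki67 had an FPKM of 27.5, 31.3 and 36.1 in P30 and of 36.9, 35.2 and 37.2 in SBT, lowest of the SBT libraries in SBT_2. SBT_2 was above both other SBT libraries for 20 of the 25, against 43.0% of all tested genes.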

How the data were processed

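RNA of 9 libraries (3 groups of 3) was analysed from 1 deposited table. For each gene the authors deposited raw read counts and FPKM values. Dividing a count by gene length and by a constant of its library gave the deposited FPKM within 1% in all but 1 of 179215 values, which was no member. The submitters' processing notes name Bowtie2 2.0.6, TopHat2 2.0.9 and mm9, whereas 53462 of the 54532 genes have the start and end of GENCODE vM21 on GRCm38, so coordinates were taken as GRCm38. The counting program is not given in the sources used here. The authors' fold changes and p-values in the same table were not used.

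The test on counts was that of edgeR 4.0.16 under R 4.3.3 (TMM, filterByExpr with a minimum count of 10 and a minimum total of 15, quasi-likelihood test, Benjamini-Hochberg adjustment over all genes tested, threshold 0.05), fitted to the 6 libraries of a comparison. FPKM values are given with the SD over 3 libraries. Library positions used CPM with TMM sizes and a pseudocount of 1. The fits were tested on simulated data with a log2 change of 1 in 200 genes. Of these edgeR recovered 171 in P30 against P0, 123 in SBT against P30 and 148 in SBT against P0. Smaller changes, such as those of most members, and a library that stands apart were not simulated.

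The members and gene lists were chosen with earlier results of these data known. Named were all members, with values in every library for the 6 called members with the largest change in each comparison and for Pcna, Mcm2 and Rrm2, and at most 3 increases and 3 decreases of each other list. Alternatives were DESeq2 1.42.0, RLE and upper-quartile factors, total counts, no filter, a filter of 10 counts in each library, a fit over all 9 libraries, a block for the replicate number, limma 3.58.1 on log2(FPKM + 1) and log2(FPKM + 0.1), and leaving out each library. Leaving out P30_3 and SBT_2 together was added after seeing the data. Promoter windows came from RefSeq on GRCm38.p6.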

Additional observations from a re-analysis of the deposited data

How the results depend on the processing

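P30_3 and SBT_2 stood apart and no source used here gives a reason, 3 libraries a group limit the precision, and strand use in counting is not known for 10 members that overlap another gene. For P30 against P0, leaving out 1 library gave 1036 to 4467 genes called (2258 with all) and 6 to 25 members higher, and all 9 libraries in the fit gave 671 genes and 0 members. For SBT against P30 it gave 1707 to 7001 genes (4061 with all), 1 to 27 members lower and medians of -0.56 to -0.23, total counts gave 7 members lower, and leaving out both libraries gave 8951 genes, 31 members lower and 1 higher. For SBT against P0 it gave 2453 to 9188 genes (4881 with all), 0 to 5 members higher, 0 to 26 lower and medians of -0.29 to 0.03. DESeq2, all 9 libraries and the block gave 4, 1 and 1 members higher, where 19.2%, 17.1% and 13.9% of all genes were called higher. Mcm3, Mcm5, Mcm10 and Rpa1 changed sign in SBT against P0, ranging from -0.18 to 0.21, from -0.12 to 0.39, from -0.21 to 0.23 and from -0.13 to 0.13, each lowest without SBT_2. Across the comparisons 49 uncalled values of members changed sign without passing. With total counts in place of TMM the called genes were 673 higher and 1552 lower in P30 against P0 (992 and 1266 with TMM) and 2605 higher and 1426 lower in SBT against P30 (2164 and 1897). Deviations of same-numbered libraries correlated between -0.27 and 0.03. Since P30_3 and SBT_2 stood apart and carry different replicate numbers, these values cannot show whether the numbers paired the libraries. With the replicate number as a block 10 members were higher in P30 against P0, 8 lower in SBT against P30, and 1 higher and 4 lower in SBT against P0. The matching shares of all genes were 5.25%, 10.3%, 13.9% and 13.8%. The cause of these changes was not tested.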

Other observations

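Of 41 genes of the RB-E2F pathway and of G1/S control, which set the transcription of replication genes, 40 were tested between P30 and P0. In P30 8 of these rose and 3 fell, against 7.21% and 9.21% of all genes, so that the falls did not exceed the share of all genes. The genes that fell were Cdkn2b, Cdkn1b and Rbl2, which encode inhibitors of cyclin-dependent kinases and an RB family protein. Cdkn2b had 181 to 188 counts in the P0 libraries and 0 in every P30 and SBT library, which is at least 49.4-fold lower in P30 against a floor of 3 counts per library. Cdkn1b had an FPKM of 20.7, 21.1 and 20.2 in P0, of 14.4, 15.6 and 12.8 in P30 and of 26.8, 18.4 and 26.6 in SBT. It fell in P30 by 0.55 on the log2 scale (adjusted p = 0.00212 in edgeR) and rose in SBT by 0.76 from P30 (adjusted p = 0.0122 in edgeR), and SBT_2 lay between the P30 libraries and the other SBT libraries. The largest increases in P30 were those of E2f2, Mybl2 and Foxm1, with log2 fold changes of 0.53, 0.52 and 0.40.

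Between SBT and P30 6 of the 39 tested regulators rose and 13 fell, against 16.0% and 14.0% of all genes, so that the rises were at the share of all genes. Without SBT_2 6 rose and 21 fell, against 25.3% and 24.8% of all genes. Cdkn1a, a p53 target and another inhibitor of cyclin-dependent kinases, had an FPKM of 143, 135 and 144 in P30 and of 55.0, 83.8 and 50.4 in SBT, and fell by 1.15 (standard error 0.190, adjusted p = 0.00476 in edgeR). Ccne1, the cyclin of S phase entry, had an FPKM of 24.2, 25.5 and 29.2 in P30 and of 10.6, 19.1 and 11.1 in SBT, and fell by 0.94 (adjusted p = 0.0158 in edgeR). Cdc25a, the phosphatase that activates its kinase, fell by 0.89 (adjusted p = 0.0113 in edgeR). Rbl2, an RB family protein, rose by 0.87 (adjusted p = 0.00407 in edgeR), with 3.67 FPKM in SBT_2 between the P30 libraries (2.11 to 2.60) and the other SBT libraries (4.58 and 4.42). Mycn rose by 0.91 (adjusted p = 0.0488 in edgeR) from low levels. Inhibitors thus moved both ways in SBT, Cdkn1a down and Cdkn1b up, and in Ccne1, Cdkn1a, Cdkn1b and Rbl2 the value of SBT_2 lay on the P30 side of the other SBT libraries.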
